A study of Homo sapiens with 24 samples.

Results

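MT-TF, MT-TV and MT-TL1 encode the mitochondrial tRNAs for phenylalanine, valine and leucine (UUR), the 3 tRNAs that border the 2 mitochondrial rRNAs. They were chosen by their place in the genome and hold 215 of the 15416 positions of the deposited table and 3 of its 37 transcripts. The RNA came from mitochondria-enriched fractions of HEK293T Flp-In T-REx, an established line of human embryonic kidney origin that accepts transgenes at a fixed site, and was profiled for 2′-O-methylation. The parental line and knock-out (KO) lines lacking MRM1, MRM2 or MRM3, enzymes that methylate the 16S rRNA, were each grown on 3 separate plates. The RNA was fragmented with alkali, an adaptor was ligated, and the pool of each plate was reverse transcribed at 500 µM or at 2 µM dNTPs, which gave 24 libraries from 12 plates.

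The lines were taken from the sample titles, because the genotype field named another line than the title for 18 of the 24 samples, and the columns of the table carry the lines of the titles. By the study's methods the MRM2 line was made for it and kept in a medium with more serum and with uridine, while the MRM1 and MRM3 lines were provided by others. The growth label, the same on every sample, gives that medium for knock-out cells without naming a line. Origin and medium therefore cannot be told apart from the deletion. The MRM genes are nuclear and are not among the 37 transcripts, so the deletions were not checked here. Replicates are plates of one line, and p-values measure the spread between plates.

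Mitochondrial DNA is transcribed into long precursors in which tRNAs stand between most other genes. RNase P cuts at the 5′ end of each tRNA and ELAC2 at its 3′ end, so the cuts around these tRNAs also free the rRNAs, and TRNT1 then adds the terminal CCA. The tRNA for valine has a further role as a structural RNA of the human mitochondrial large ribosomal subunit. The TRMT10C complex methylates the purine at residue 9 of many mitochondrial tRNAs on the face that pairs with cDNA, a mark known to stop reverse transcriptase.

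In GRCh38, on the plus strand of the mitochondrial chromosome, MT-TF lies at positions 577 to 647, directly before the 12S rRNA gene MT-RNR1 at 648 to 1601. MT-TV follows at 1602 to 1670, the 16S rRNA gene MT-RNR2 at 1671 to 3229, and MT-TL1 at 3230 to 3304, with the mRNA gene MT-ND1 from 3307. Nucleotides are counted here from 1 at the 5′ end of each tRNA. The sequences are shown because the stops of reverse transcriptase described here sit at single nucleotides. Capitals mark nucleotides at which, on average over the 12 libraries of a dNTP level, at least 10% of the molecules stopped, provided that at least 50 reads covered the next nucleotide in all 12 libraries.
MT-TF, 500 µM: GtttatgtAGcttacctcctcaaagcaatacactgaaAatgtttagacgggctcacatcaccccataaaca
MT-TF, 2 µM: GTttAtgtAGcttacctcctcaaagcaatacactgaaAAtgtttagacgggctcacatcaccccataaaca
MT-TV, 500 µM: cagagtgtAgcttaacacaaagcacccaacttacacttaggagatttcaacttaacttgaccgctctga
MT-TV, 2 µM: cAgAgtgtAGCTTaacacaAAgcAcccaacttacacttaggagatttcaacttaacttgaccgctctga
MT-TL1, 500 µM: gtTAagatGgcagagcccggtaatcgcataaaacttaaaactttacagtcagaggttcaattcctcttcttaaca
MT-TL1, 2 µM: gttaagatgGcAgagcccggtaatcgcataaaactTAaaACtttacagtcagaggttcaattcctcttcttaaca
Capitals stand at 4 nucleotides of MT-TF at 500 µM and 7 at 2 µM, at 1 and 10 of MT-TV, and at 3 and 6 of MT-TL1. The MT-TL1 counts come from different nucleotides, because nucleotides 1 to 9 fell under the minimum of 50 reads at 2 µM and could not be marked there. At 500 µM nucleotides 1 and 2 fell under it too. Their mean ratios there were 11.7% and 40.2%, with as few as 6 and 13 covering reads. At nucleotides 3, 4 and 9 the mean ratios at 2 µM were 13.5%, 26.6% and 57.4%, with as few as 2, 4 and 8 covering reads. The anticodons GAA, TAC and TAA stand at nucleotides 35 to 37, 32 to 34 and 36 to 38 of MT-TF, MT-TV and MT-TL1. Nucleotide 9 is A in MT-TF and MT-TV and G in MT-TL1.

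Reads were counted as the sum of 5′ ends over a transcript, and only fragments lying wholly within it were counted. The libraries held 162673 to 807322 reads at 500 µM and 483960 to 4048537 at 2 µM. MRM2 KO libraries were the shallowest at 500 µM, at 162673 to 194073 reads, against 604562 to 807322 in the parental line. The 3 tRNAs had 391 to 22473 reads (MT-TF), 1799 to 229279 (MT-TV) and 1193 to 34057 (MT-TL1). Together they took 1.32% to 4.68% of the reads at 500 µM and 6.27% to 11.8% at 2 µM. In reads per length, averaged over the 12 libraries at 500 µM, MT-TV ranked 3, MT-TL1 4 and MT-TF 12 among the 22 mitochondrial tRNAs. At 2 µM the ranks were 2, 8 and 13.

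MT-TF was lower in the MRM3 KO line than in the parental line, at both dNTP levels. At 500 µM the parental libraries held 3014, 3034 and 3656 RPM (reads scaled to the total of a library) of MT-TF and the MRM3 KO libraries 2104, 1525 and 1354. All 3 knock-out libraries lay below the lowest parental library. The log2 difference after TMM scaling was -1.23 (SE 0.29, adjusted p = 0.00011, edgeR quasi-likelihood test, Benjamini-Hochberg over 37 transcripts), 15 of which, or 40.5%, were called. Scaled by total reads it was -0.96 (adjusted p = 0.0112, edgeR), while the median of all transcripts moved from -0.16 to 0.14 and the calls over all transcripts from 8 higher and 7 lower to 11 and 3.

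The 19 other tRNAs of the mitochondrion included 5 lower and 0 higher calls in that comparison, with a median of -0.44, and 1 lower and 0 higher with total reads, with a median of -0.09. At 2 µM the values for MT-TF were 4313, 5982 and 10144 RPM in the parental line and 2044, 2140 and 2371 in MRM3 KO. The groups did not overlap here either, with a log2 difference of -1.77 (SE 0.47, adjusted p = 0.0094, edgeR), at a call rate of 16.2% of transcripts. Without 1 library at a time the difference ranged from -1.97 to -1.43 and the adjusted p from 0.0079 to 0.111, and the call was lost without MRM3 KO replicate 2 or 3 or parental replicate 3.

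Set against the 2 rRNAs, the result for MT-TF depended on which one was used. Per 1000 reads of the 12S rRNA, MT-TF had 8.26, 8.33 and 10.04 reads in the parental line and 4.67, 3.19 and 2.86 in MRM3 KO at 500 µM. At 2 µM these ratios were 17.0, 22.9 and 42.9 against 8.79, 6.59 and 6.86. The ranges of the 2 lines were apart at each level. How often ratios of other transcripts to the rRNAs lay apart was not counted. The 12S rRNA itself was higher in RPM in MRM3 KO at 500 µM, at 451016 to 478691 against 363945 to 365033 in the parental line, and overlapped at 2 µM. With TMM its log2 difference at 500 µM was 0.17 (SE 0.21, adjusted p = 0.58, edgeR) and not called. Per 1000 reads of the 16S rRNA, MT-TF had 7.13, 6.98 and 8.57 reads in the parental line and 8.17, 6.06 and 5.76 in MRM3 KO at 500 µM, and 11.7, 15.5 and 29.9 against 12.7, 9.45 and 10.9 at 2 µM. These ranges overlapped at both levels, and the 16S rRNA itself was lower in MRM3 KO at both, with 235044 to 257625 RPM against 422850 to 434827 at 500 µM.

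MT-TV and MT-TL1 were not called in any knock-out line at either dNTP level, and MT-TF was not called in MRM1 KO or MRM2 KO. At 500 µM MT-TV held 10862, 8906 and 8220 RPM in the parental line, 13824, 12943 and 11149 in MRM1 KO, 13366, 22671 and 16094 in MRM2 KO, and 15337, 7016 and 7646 in MRM3 KO. MT-TL1 held 5640, 5100 and 9439 in the parental line, 12505, 9173 and 4835 in MRM1 KO, 14933, 19955 and 14710 in MRM2 KO, and 13129, 4653 and 5728 in MRM3 KO. In MRM2 KO both tRNAs lay above all parental libraries on this scale, whereas in MRM3 KO replicate 1 stood well above replicates 2 and 3. The share of all transcripts that lay apart in RPM was not counted, so the separation cannot be read as particular to these tRNAs.

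The MRM2 KO result turned on the scaling. With TMM the log2 difference at 500 µM was 0.56 (SE 0.31, adjusted p = 0.188, edgeR) for MT-TL1, 0.17 (SE 0.32) for MT-TV and -0.62 (SE 0.28, adjusted p = 0.116) for MT-TF. Scaled by total reads it was 1.30 for MT-TL1 and 0.90 for MT-TV, both called at an adjusted p of 0.0256 (edgeR), and 0.11 for MT-TF. The median of all transcripts then moved from 0.01 to 0.73, the calls over all transcripts from 0 higher and 5 lower to 18 and 2, and MT-TF changed sign. Call rates with TMM were 13.5% of transcripts in MRM2 KO and 0% in MRM1 KO at 500 µM, and 18.9% and 0% at 2 µM. In MRM1 KO an unadjusted p under 0.05 was reached by 2 transcripts at 500 µM and 0 at 2 µM, and DESeq2 called 0 at both.

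Against the 16S rRNA, whose reads share the total, MT-TL1 had 13.3, 11.7 and 22.1 reads per 1000 in the parental line and 34.6, 50.1 and 36.5 in MRM2 KO at 500 µM. MT-TV had 25.7, 20.5 and 19.3 in the parental line and 31.0, 56.9 and 39.99 in MRM2 KO. Neither pair of ranges overlapped at 500 µM. The share of other transcripts whose ratio to the 16S rRNA also lay apart was not counted. At 2 µM the MT-TL1 ratios of the 2 lines overlapped, at 11.9 to 45.4 in the parental line and 30.3 to 47.1 in MRM2 KO. The MT-TV ratio also lay above the parental range in MRM3 KO at both levels, with 27.9 to 59.5 at 500 µM, and in all 3 knock-out lines at 2 µM, where it was 129.9 to 158.3 in the parental line, 172.6 to 241.2 in MRM1 KO, 218.2 to 460.9 in MRM2 KO and 246.8 to 643.7 in MRM3 KO. The 16S rRNA was itself lower, in RPM, in MRM3 KO at both levels and in MRM2 KO at 2 µM. In MRM2 KO at 500 µM its RPM overlapped with the parental range. With TMM it was called lower there, at a log2 difference of -0.79 (SE 0.21, adjusted p = 0.0031, edgeR).

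At 2 µM MT-TV held 56633, 50251 and 53663 RPM in the parental line, 57414, 70547 and 82698 in MRM1 KO, 67464, 97240 and 92983 in MRM2 KO, and 103786, 55865 and 60679 in MRM3 KO. Both the MRM1 KO and the MRM2 KO libraries lay above the parental ones in RPM, and the share of all transcripts that did so was not counted. The log2 differences with TMM were 0.25 (SE 0.32, adjusted p = 0.695, edgeR) and 0.47 (SE 0.32, adjusted p = 0.279). MT-TL1 held 4408, 6446 and 15373 in the parental line, 9168, 4142 and 2498 in MRM1 KO, 14570, 8191 and 6441 in MRM2 KO, and 11893, 7012 and 2263 in MRM3 KO. Its knock-out ranges overlapped with the parental range in all 3 lines, and the log2 differences of -0.77, -0.07 and -0.62 had SEs of 0.47 each.

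**Figure D1:**
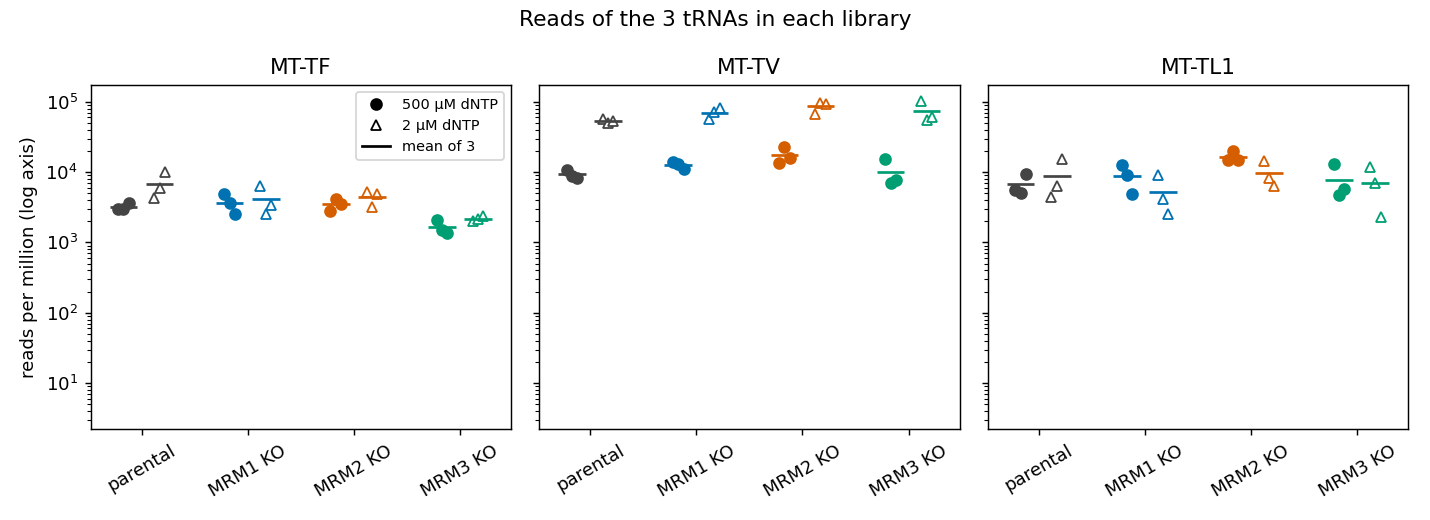
RPM of MT-TF, MT-TV and MT-TL1 in each of the 24 libraries, on a log axis, by line (filled circles 500 µM dNTPs, open triangles 2 µM, bars the mean of 3). The MT-TF points of MRM3 KO lie below those of the parental line at each level, and MT-TV is higher at 2 µM than at 500 µM in all 4 lines.

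The lower dNTP level moved the 3 tRNAs apart. MT-TV, with 7016 to 22671 RPM at 500 µM, had 50251 to 103786 at 2 µM, without overlap. Compared within plates, its log2 difference was 2.16 (SE 0.19, adjusted p = 6.9e-08) in the parental line, 2.23 in MRM1 KO, 2.39 in MRM2 KO and 2.25 in MRM3 KO, each called by edgeR. The call rates of these 4 comparisons were 64.9%, 62.2%, 62.2% and 75.7% of the transcripts. Among the 19 other tRNAs of the mitochondrion 10 to 11 were higher and 2 to 4 lower, with medians of 0.66 to 1.40.

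MT-TL1 was lower at 2 µM in MRM1 KO, at a log2 difference of -1.08 (SE 0.34, adjusted p = 0.0098, edgeR), and in MRM3 KO, at -0.95 (SE 0.35, adjusted p = 0.0216). In the parental line it differed by -0.14 (adjusted p = 0.737) and in MRM2 KO by -0.77 (adjusted p = 0.0593), and with total reads the latter was called, at -0.84 (adjusted p = 0.0174, edgeR). Neither MT-TL1 call was firm. In MRM1 KO it was lost without any 1 of its 3 plates, at -0.86 to -0.33. In MRM3 KO it was lost without replicate 3 and with total reads, at -0.29.

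MT-TF differed by 0.62 (SE 0.30, adjusted p = 0.0761, edgeR) in the parental line, -0.14 in MRM1 KO, 0.42 in MRM2 KO and -0.25 in MRM3 KO, none of them called. With total reads the parental value was 0.99 (adjusted p = 0.00498) and the signs in MRM1 KO and MRM3 KO turned, to 0.10 and 0.42, neither called. Total reads also moved the calls over all transcripts from 13 higher and 11 lower to 15 and 5 in the parental line, and from 12 and 16 to 15 and 7 in MRM3 KO. In a test of whether the effect of dNTP level differed between each knock-out line and the parental line, 0 of 37 transcripts were called for any line, a call rate of 0% each. An unadjusted p under 0.05 was reached by 1, 6 and 6 transcripts in MRM1, MRM2 and MRM3 KO, none of them a tRNA next to an rRNA.

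**Figure D2:**
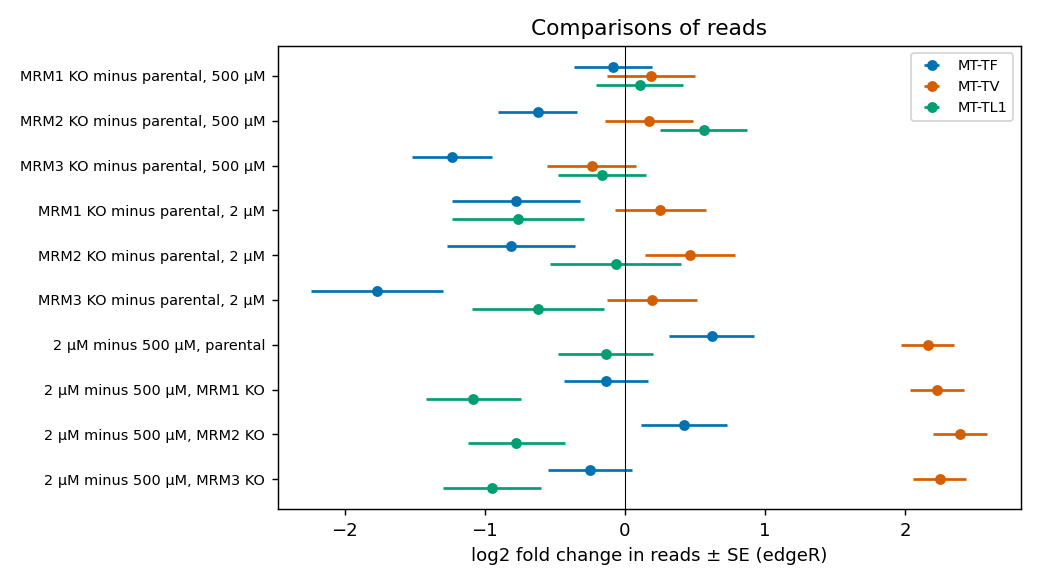
Log2 fold change in reads with its SE (edgeR, TMM) for MT-TF, MT-TV and MT-TL1 in the 6 comparisons of a knock-out line with the parental line and the 4 comparisons of dNTP levels. MT-TF reaches -1.77 in MRM3 KO at 2 µM, and MT-TV lies at 2.16 to 2.39 for 2 µM against 500 µM.

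Across the 12 libraries at 500 µM the 3 transcripts closest in level to each of the 3 tRNAs lay outside this group. They were picked as the highest of all other transcripts, so their r cannot be set against that of a fixed pair. MT-TV followed MT-TI most closely (Pearson r of log2 RPM 0.91), then MT-TK (0.86) and MT-TP (0.83). MT-TF was most like MT-TR (0.83), the 16S rRNA (0.83) and MT-TS2 (0.81), and MT-TL1 most like MT-TH (0.81), MT-TA (0.77) and MT-TE (0.74). Between the 3 tRNAs r was 0.51 for MT-TF and MT-TV, 0.45 for MT-TV and MT-TL1, and 0.25 for MT-TF and MT-TL1. Ranked by r with MT-TF, MT-TV stood at 14 and MT-TL1 at 17 among all other transcripts. For MT-TV, MT-TF stood at 14 and MT-TL1 at 17, and for MT-TL1, MT-TV stood at 9 and MT-TF at 17. These are descriptions over 12 libraries that share depth and scaling.

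The ends of the fragments show how much of each tRNA was copied. Most fragments reached the last encoded nucleotide at both dNTP levels, while the 5′ ends moved with the level. Since the RNA was broken before ligation, a 5′ end is either the end of a molecule, a break or a stop of reverse transcriptase.

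At 500 µM, 20.9% ± 5.09 (SD, n = 12 libraries) of the MT-TF fragments began at nucleotide 1, against 34.4% ± 6.90 for MT-TV and 0.861% ± 0.225 for MT-TL1. MT-TL1 stood apart, with the lowest share in each of the 12 libraries. At 2 µM the shares were 3.17% ± 0.660, 0.273% ± 0.1005 and 0.172% ± 0.118 (SD, n = 12). Each of the 3 was lower at 2 µM on 12 of 12 plates (exact permutation of signs over plates, p = 0.00049, adjusted over 9 comparisons 0.00073, the smallest p that 12 plates allow).

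The mean fragment length fell by 12.8 nt for MT-TF, from 50.5 to 37.7 nt, and by 15.4 nt for MT-TV, from 60.7 to 45.3 nt. For MT-TL1 it fell by 25.6 nt, from 63.5 to 37.9 nt. Each fell on 12 of 12 plates, with the same exact p. The share with its 3′ end at the last nucleotide was 87.5% at 500 µM and 88.2% at 2 µM for MT-TF (adjusted p = 0.499, exact permutation). It was 90.6% and 88.4% for MT-TV (lower on 11 of 12 plates, adjusted p = 0.0126, exact) and 89.5% and 84.6% for MT-TL1 (lower on 10 of 12 plates, adjusted p = 0.0357, exact). The MT-TL1 call was lost without any 1 of 5 plates, MRM1 KO replicates 2 and 3, MRM2 KO replicates 2 and 3 and MRM3 KO replicate 3, with adjusted p-values of 0.0025 to 0.0714 (exact permutation) over the 12 plates left out in turn. MT-TL1 in MRM3 KO replicate 3 had the lowest such share at 2 µM, 52.3%, whereas the other 11 libraries had at least 77.8%, and without that plate the difference was -2.58 percentage points.

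Where the 5′ ends fell differed by tRNA, in classes chosen after the values were seen. At 500 µM, 74.6% of the MT-TL1 fragments began at nucleotides 10 to 14, just inside nucleotide 9, against 49.5% for MT-TV and 25.4% for MT-TF. At 2 µM, 84.7% of the MT-TL1 fragments, 76.9% of MT-TV and 78.5% of MT-TF began at nucleotide 15 or later. For MT-TF 42.9% did so already at 500 µM, against 11.04% for MT-TV and 8.82% for MT-TL1.

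**Figure D3:**
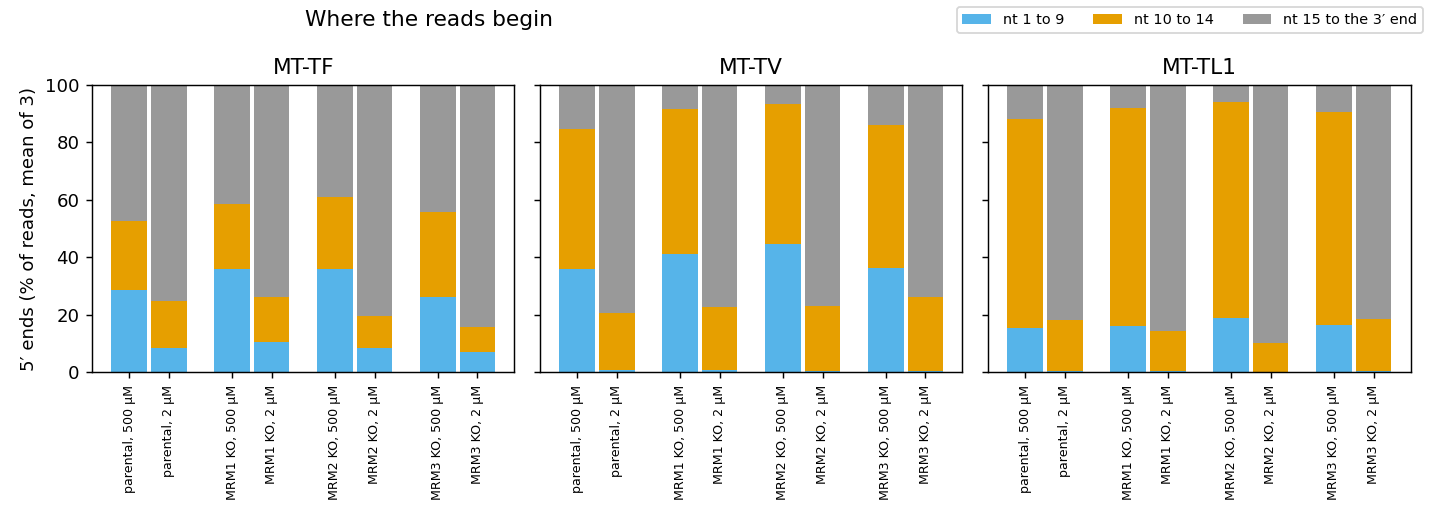
Share of reads (mean of 3 replicates, in percent) whose 5′ end lies at nucleotides 1 to 9, 10 to 14, or 15 to the 3′ end of MT-TF, MT-TV and MT-TL1, for each line at 500 and 2 µM dNTPs. In MT-TL1 the class of nucleotides 10 to 14 holds 74.6% of the ends at 500 µM, and that from nucleotide 15 on holds 84.7% at 2 µM, averaged over the lines.

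Between lines the ends also differed, with 3 against 3 libraries per comparison and a smallest exact p of 0.1. Of 54 comparisons, over 3 tRNAs, 3 measures, 3 lines and 2 dNTP levels, 23 did not overlap, while over all 22 mitochondrial tRNAs 29% did not. None of them passed the threshold (adjusted p = 0.235 for those without overlap, exact permutation). In MRM2 KO at 500 µM all 3 tRNAs had more fragments with a complete 3′ end than in any parental library, a pattern shared by 90.9% of the 22 tRNAs. The means were 93.7% against 82.6% for MT-TF, 95.3% against 86.1% for MT-TV and 94.8% against 84.4% for MT-TL1. Mean lengths were higher without overlap for all 3 too, as for 59.1% of the 22. These libraries were also the shallowest, and the part of depth in the difference was not tested.

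The RT-stop ratio gives, at each nucleotide, the share of molecules that began 1 nucleotide downstream among those covering that nucleotide, with 1 added to both counts as the authors did. It is shown in percent. At 500 µM strong stops with enough reads stood at nucleotide 9 in all 3 tRNAs, and also at nucleotide 38 in MT-TF and nucleotide 3 in MT-TL1. Nucleotide 9 was the strongest in MT-TV, whereas in MT-TL1 nucleotide 3 exceeded it, at a mean of 87.3% against 80.2%.

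At nucleotide 9 of MT-TL1 (chromosome position 3238) the parental ratios at 500 µM were 79.7%, 83.4% and 79.7%, and those of the knock-out lines ran from 78.5% to 81.3%. At nucleotide 9 of MT-TV (1610) the parental ratios were 48.5%, 47.9% and 44.2% and the knock-out ratios 39.8% to 49.6%. At nucleotide 9 of MT-TF (585) they were 36.04%, 35.4% and 37.8% in the parental line and 24.1% to 51.9% in the knock-out lines. MRM1 KO lay below the parental line for MT-TF, at 27.3% to 31.9%, and MRM2 KO for MT-TL1, at 78.5% to 79.0%, without overlap. The other 7 pairs of ranges overlapped, and none of the 9 was called by limma. The share of such pairs over the other tRNAs was not counted, and the smallest exact p of 3 against 3 libraries is 0.1. The widest 95% Wilson intervals reached 2.53, 2.94 and 6.80 percentage points to each side for MT-TL1, MT-TV and MT-TF, and they cover counting error only.

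Among the 22 mitochondrial tRNAs in parental cells at 500 µM, 19 have A or G at nucleotide 9 and stopped there at 4.94% to 98.1% of molecules (median 61.4%). The 3 with C or T had 0.655% to 1.67%. MT-TL1 ranked 3, MT-TV 12 and MT-TF 13. The 5 tRNAs with G there, MT-TL1 among them, ranged from 61.4% to 98.1%, and the 14 with A from 4.94% to 80.8%. At 2 µM nucleotide 9 of MT-TF stood at 55.5%, 55.0% and 51.8% in the parental line and at 40.8%, 38.4% and 43.6% in MRM3 KO. The ranges were apart, but the log2 difference of -0.40 was not called (SE 0.07, adjusted p = 0.116, limma), and at 500 µM the ranges overlapped. How often ranges lay apart at other positions at 2 µM was not counted.

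**Figure D4:**
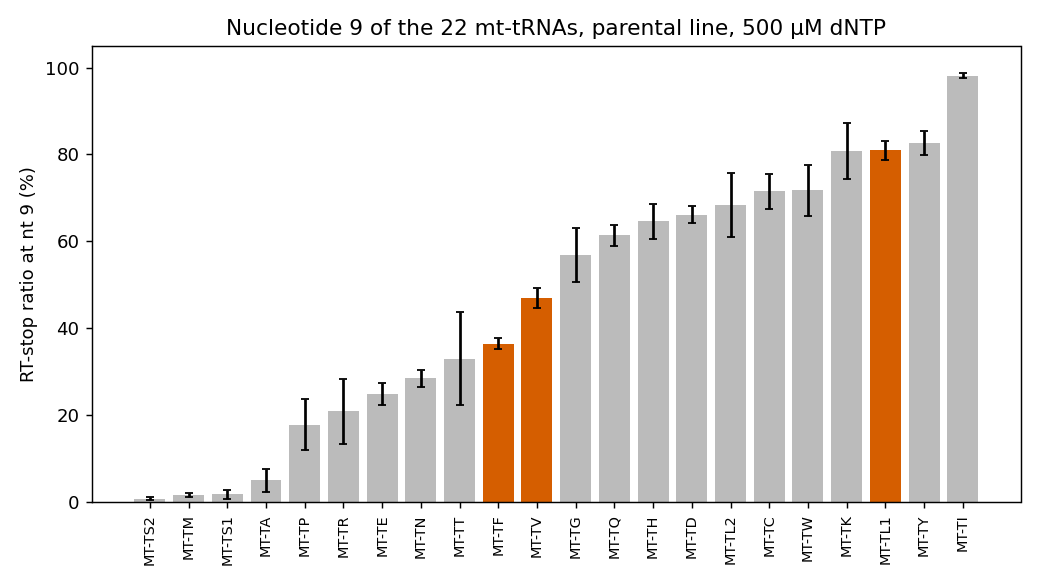
RT-stop ratio at nucleotide 9 (percent, mean of 3 parental libraries at 500 µM dNTPs, error bars the SD) for the 22 mitochondrial tRNAs, with MT-TF, MT-TV and MT-TL1 in orange. The coverage behind a value was as low as 33 reads, and the 3 lowest bars, at 0.655% to 1.67%, are the tRNAs with a pyrimidine there.

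Nucleotide 38 of MT-TF, which follows the anticodon, is known to carry a bulky modification of adenosine, in whose making CDK5RAP1 takes part. There the ratio was 28.5% to 49.4% (median 37.3%) over the 12 libraries at 500 µM. At 2 µM it was 29.2% to 61.8% (median 46.5%), so the levels overlapped. The adjacent A at nucleotide 39 went from 0.542% to 2.33% at 500 µM to 24.1% to 44.1% at 2 µM, without overlap. In MT-TL1 the nucleotide after the anticodon, also A, had a mean of 0.1705% at 500 µM and 8.47% at 2 µM. Nucleotide 3 of MT-TL1 stopped 83.8% to 90.3% of the molecules at 500 µM and was covered by as few as 128 reads, against at least 940 at nucleotide 9.

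Low dNTP added stops at many further nucleotides. In MT-TV nucleotide 10, the G next to nucleotide 9, rose from 3.03% to 5.57% at 500 µM to 54.0% to 86.5% at 2 µM. Nucleotide 10 of MT-TL1, also G, rose from 3.49% to 6.09% to 90.1% to 96.1%. In MT-TF the same nucleotide, G as well, went from 7.90% to 20.1% to 14.8% to 29.1%, so only there did the levels overlap. The log2 differences were 4.17 (SE 0.12, adjusted p = 2.7e-12) for MT-TV, 4.49 (SE 0.11, adjusted p = 7.0e-13) for MT-TL1 and 0.59 (SE 0.15, adjusted p = 0.0032) for MT-TF, by limma over 11971 positions and all lines.

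Nucleotides 37 and 38 of MT-TL1, both A in the anticodon, showed some of the steepest changes. Nucleotide 37 rose from 0.498% to 1.27% (median 0.715%) to 30.6% to 56.7% (median 51.1%), a log2 difference of 6.02 (SE 0.15, adjusted p = 8.3e-13, limma). Nucleotide 38 rose by 6.31 (SE 0.19), from a mean of 0.128% to 8.99%. Nucleotide 36, the wobble base, known to carry a taurine modification in this tRNA, went from 0.475% to 13.9%. Nucleotide 41, a C past the anticodon, went from 0.883% to 21.2%, and nucleotide 33, an A, from 0.082% to 4.67%. Nucleotide 60 of MT-TL1, which corresponds to tRNA residue 58 and is a known site of methylation by TRMT61B, went from 0.0789% to 0.257% to 1.97% to 8.93%.

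MT-TV nucleotides 20, 21 and 24, all A, went from means of 0.821%, 1.58% and 0.252% to 34.4%, 33.6% and 11.8%. Its nucleotide 4 went from 1.21% to 37.7%, and nucleotides 11 and 12, C and T, from 8.48% and 4.73% to 28.8% and 35.5%. The first nucleotides of MT-TF, where a stop lies next to the end of the molecule, went from 18.04% and 8.23% to 36.1% and 18.8%. Nucleotide 53 of MT-TL1 had 0 stops in 38822 covering reads over the 12 libraries at 500 µM, which allows up to 0.00773% for counting error alone, and 2374 stops in 130193 reads at 2 µM, at least 236-fold higher against that limit of 3 counts over the group. With nucleotides 37, 38 and 33 of MT-TL1 and nucleotide 24 of MT-TV it made up the 5 largest changes without overlap.

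**Figure D5:**
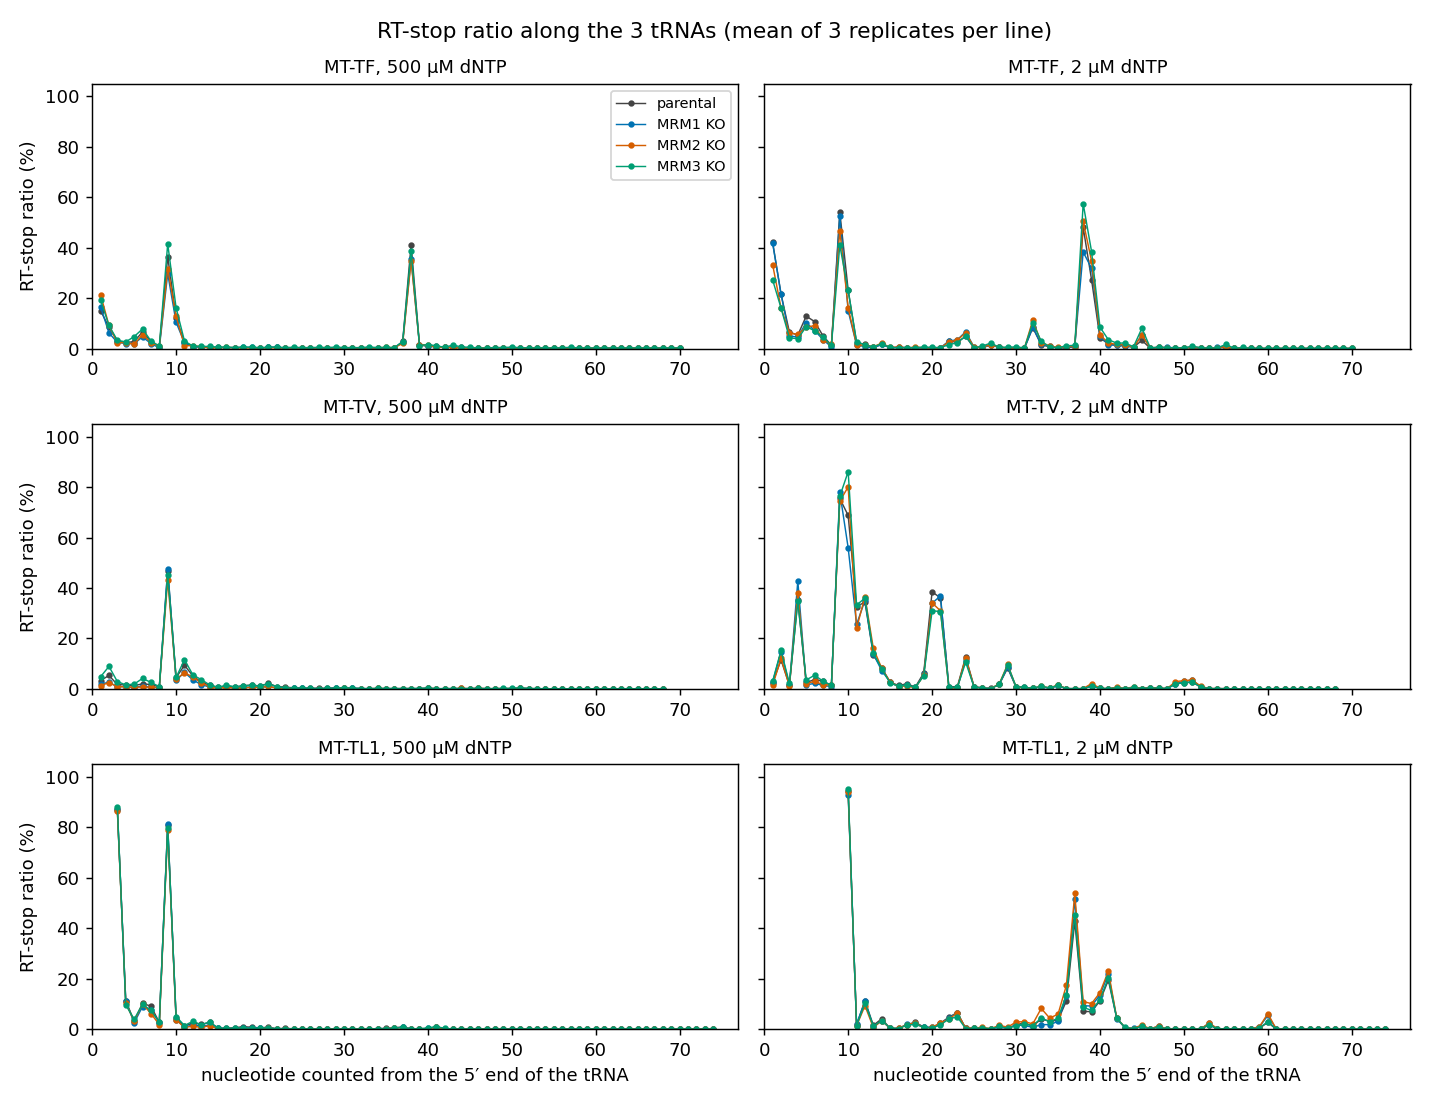
RT-stop ratio (percent, mean of 3 replicates) along MT-TF, MT-TV and MT-TL1 for the 4 lines at 500 µM (left) and 2 µM dNTPs (right), at nucleotides whose downstream coverage was at least 50 in all 12 libraries of the level. At 2 µM nucleotide 10 of MT-TV stands at 68.7, 55.9, 80.1 and 86.1% in the parental, MRM1 KO, MRM2 KO and MRM3 KO lines, the stop at nucleotide 9 is present at 500 µM, and the stops at nucleotides 20 and 21 of MT-TV and 37 of MT-TL1 appear at 2 µM.

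Over the 3 tRNAs 203 positions were tested, and at 120 of them the ratio was called higher at 2 µM and at 48 lower (limma, adjusted over 11971 positions). Over all positions 36% were higher and 39% lower. The lower calls depended on the constant 1. Simulated stops that did not change between libraries gave calls in this fit where depth differed between the groups. In every line the 2 µM libraries were deeper in total than those at 500 µM, but not at every nucleotide. At nucleotide 10 of MT-TL1 the lowest coverage behind the ratio was 203 at 2 µM and 1000 at 500 µM. Where stops are few, higher calls at such nucleotides may therefore depend on the constant too. Nucleotide 10 of MT-TL1 itself had many stops, 1455 over the 12 libraries at 500 µM and 19450 over all 24. With the 1 added in proportion to coverage, an alternative chosen after seeing the data, 130 positions were higher and 4 lower, against 35.2% higher and 30.9% lower over all positions. At 33 of the 203 positions, the last 11 tested before each 3′ end, not a single stop was counted. The 4 lower positions were 2 in MT-TF, 1 in MT-TV and 1 in MT-TL1.

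By tRNA, 41 of 70 positions were higher in MT-TF, 46 of 68 in MT-TV and 43 of 65 in MT-TL1 with the proportional amount. The 19 other tRNAs of the mitochondrion had 453 higher and 23 lower of 842. By base, 56 of 66 positions with A were higher in the 3 tRNAs, with a median log2 difference of 4.14, against 21 of 53 with C (0.30), 20 of 31 with G (0.95) and 33 of 53 with T (1.05). Over all positions of the table A was also the base most often called higher, at 69.2% against 15.1% for C, 26.4% for G and 24.9% for T.

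The RT-stop score, the log2 ratio of the stop ratios at 2 and 500 µM on a plate, is the measure of 2′-O-methylation by reverse transcription. At 0 of the 203 positions was a knock-out line called against the parental line (limma, adjusted p of at least 0.594 in MRM1 KO, 0.104 in MRM2 KO and 0.344 in MRM3 KO). The call rates over all positions were 0.00835%, 0% and 0.00835%. An unadjusted p under 0.05 was reached by 32, 31 and 11 of the 203 positions. With the proportional amount 0 were called in each line as well, with 13, 32 and 15 at an unadjusted p under 0.05. With the constant 1, 0 of 11971 positions were called in MRM2 KO. The rRNA residue that the paper gives as the target of MRM2 was therefore not called either. That fit cannot show whether MRM2 methylates positions of MT-TF, MT-TV or MT-TL1. In MT-TL1 only 65 of 74 positions were tested. The cleavage protection score, the other measure of the method, was not tested, since 111 scores exist at 57 of the 215 positions and no position has a score in all 12 libraries.

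In the stop ratio at 500 µM, 0 of 210 positions were called in MRM1 KO and 0 in MRM3 KO, where 0.0071% and 0% of all positions were called and 22 and 50 of the 210 had an unadjusted p under 0.05. In MRM2 KO 11 were called, 2 higher and 9 lower, at 3.36% of all positions. The calls depended on the amount added. The 2 higher ones, nucleotides 36 and 53 of MT-TF, had 2 and 1 stops in the 12 libraries at 500 µM, and MRM2 KO libraries were the shallowest. With the proportional amount 1 of the 210 was called, nucleotide 28 of MT-TV, at a log2 difference of -2.91 (adjusted p = 0.0300, limma), where 0.263% of all positions were called. At 2 µM its difference was 0.20 and not called. With 0.1 added or with at least 1 stop per library on average, 0 were called.

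At 2 µM the observed stop ratio at nucleotide 10 of MT-TV differed between the lines, without a call. It was 68.0%, 62.2% and 75.9% in the parental line, 54.0%, 56.8% and 56.8% in MRM1 KO, 79.4%, 81.1% and 79.8% in MRM2 KO, and 85.8%, 86.5% and 86.0% in MRM3 KO. No knock-out range overlapped with the parental range, lower in MRM1 KO and higher in the others. The share of positions whose ranges lay apart at 2 µM was not counted, so the separation cannot be read as particular to this nucleotide. None was called by limma on the 2 µM ratios, with log2 differences of -0.29 (adjusted p = 0.316), 0.23 (adjusted p = 0.0623) and 0.33 (adjusted p = 0.199), and this nucleotide was singled out after its values were seen.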

How the data were processed

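Mitochondria-enriched RNA of 4 lines was profiled on 12 plates at 2 dNTP levels, in 24 libraries. The authors aligned paired reads (STAR 2.5.3a and GRCh38.p13 in the submitters' processing notes) and deposited raw counts of read ends and coverage per position, and RT-stop ratios as a fraction with 1 added to stops and coverage. The counts gave back all 369096 of these ratios, with a tolerance of 1e-12. Deposited cleavage protection scores, also a fraction, were counted only. A further 10 columns, the authors' p-values as deposited, were not used.

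RPM are scaled to the reads of all 37 transcripts in a library. Reads per transcript (at least 10 in at least 3 libraries) were tested with edgeR 4.0.16 (TMM, quasi-likelihood), with the plate as block for dNTP levels, because both libraries of a plate come from 1 pool of ligated RNA. Log2 stop ratios at positions with a coverage of at least 50 were tested with limma 3.58.1 (trend) in R 4.3.3. Tests were two-sided, adjusted after Benjamini and Hochberg at 0.05. The fits were tested on simulated data. Stops simulated without change gave false calls where depth differed and a constant 1 was added, so 1 added in proportion to coverage and a mean of at least 1 stop per library were tried, both chosen after seeing the data. Other alternatives were DESeq2 1.42.0, total reads, omission of the rRNAs, no minimum of reads, a fit to only the 6 libraries compared, the replicate number as a block, coverage of 20 or 200, 0.1 added, the 2 µM libraries, ends within 1 nucleotide, and each replicate left out. Other steps used Python 3.11.15, numpy 2.4.6, pandas 2.3.3, scipy 1.17.1 and matplotlib 3.10.9.

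Named positions came from the 5 with the highest mean ratio per tRNA, nucleotide 9, nucleotide 60 of MT-TL1, and up to 5 largest calls without overlap per test. Others were chosen after their values were seen. The 3 tRNAs and all lists were chosen with earlier results of these data known. Reads carry no molecular identifiers. No 2 replicate libraries agreed within sampling noise (lowest chi-square per degree of freedom 34.6).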

Additional observations from a re-analysis of the deposited data

How the results depend on the processing

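Depth limits the ratios: MRM2 KO libraries at 500 µM held as few as 162673 reads, and nucleotide 9 of MT-TL1 was covered by as few as 8 reads at 2 µM. Of the single values 3424 kept direction and side of the threshold, 80 lost and 13 gained a call. The causes were not tested unless stated.

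Reads. In MRM2 KO at 500 µM the tRNAs called became 1 with DESeq2, 2 with total reads and 1 with its 6 libraries alone (MT-TF lower in the first and last, MT-TV and MT-TL1 higher with total reads), and all transcripts called went from 5 to 8, 20 and 10. With its 6 libraries alone MRM1 KO had 1 call at each level, and MRM3 KO at 2 µM had 3. In MRM2 KO at 2 µM the calls were 2 without rRNAs and 1 with a replicate block. For 2 against 500 µM the tRNAs called were 2 with total reads and 2 with DESeq2 in the parental line, 2 with total reads, without rRNAs and with DESeq2 in MRM2 KO, and 1 with total reads in MRM3 KO. With no replicate block they were 1 in MRM1 KO and 1 in MRM3 KO, and all transcripts called were 15 in the parental line and 13 in MRM1 KO. The interaction for MRM3 KO had 10 calls without rRNAs, none among the 3 tRNAs. The replicate block changed the number of tRNAs called in 0 comparisons of lines. Same-numbered plates of different lines correlated at -0.77 to 0.59 at 500 µM and -0.69 to 0.89 at 2 µM, so the numbers do not pair lines.

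Leaving out 1 replicate. Transcripts called ranged from 3 to 9 in MRM2 KO and 11 to 22 in MRM3 KO at 500 µM, 0 to 9 and 0 to 12 at 2 µM, with 0 to 1 of the 3 tRNAs in MRM3 KO. For 2 against 500 µM they ranged from 14 to 20 in the parental line, with 1 to 2 of the 3 tRNAs there, in MRM2 KO and in MRM3 KO, and 1 in MRM1 KO. The interaction for MRM3 KO had 0 to 1.

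Stops. For the score, calls over all positions were 2 (coverage of 200) and 2 (proportional amount) in MRM1 KO, 1 (0.1 added) and 3 (proportional) in MRM2 KO, and 2 (coverage of 200), 3 (proportional) and 4 (replicate block) in MRM3 KO. Without 1 replicate they were 1 to 2 in MRM1 KO and 0 to 7 in MRM2 KO, with 0 to 1 in the 3 tRNAs. For the dNTP levels, 4896 positions were called at a coverage of 200, where fewer positions are tested. For the ratio at 500 µM in MRM2 KO, the 11 calls in the 3 tRNAs became 27 (coverage of 20), 3 (coverage of 200), 0 (0.1 added), 0 (at least 1 stop), 1 (proportional), 3 (replicate block) and 25 (6 libraries), and 0 to 5 without 1 replicate. Over all positions the 474 became 1113, 49, 53, 0, 37 and 151 in the first 6 of these, 844 at 2 µM, and 0 to 291 without 1 replicate. In MRM1 KO they were 0 (coverage of 20), 2 (coverage of 200), 7 (0.1 added), 3 (2 µM), 0 (at least 1 stop), 8 (proportional), 0 (replicate block), 0 (6 libraries) and 0 without 1 replicate. In MRM3 KO they were 5 (0.1 added), 4 (2 µM), 7 (proportional) and 0 to 23 without 1 replicate. Reversed single values were nucleotide 16 of MT-TL1 for the dNTP levels, -0.22 with the proportional amount, and at 2 µM in MRM2 KO nucleotide 16 of MT-TL1, 0.14, and nucleotide 28 of MT-TV, 0.20.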
